A study of Rattus norvegicus with 16 samples.

Results

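The AP-1 family genes *Fos*, *Fosb*, *Fosl1*, *Fosl2*, *Jun*, *Junb*, *Jund*, *Batf3*, *Batf* and *Atf3* were examined in PCCl3 cells, a differentiated rat thyroid follicular cell line, after silencing of the transcription factor Pax8. Members were chosen by name, and the study had already reported *Fos*, *Jun* and *Batf3* as differentially expressed after Pax8 silencing. Probes were assigned to the members through the transcript accession of each spot. This gave 9 probes for 8 of the 10 genes, out of 41012 probes and 8899 named genes on the arrays, whereas *Fosb* and *Batf* had no probe by this match and were not analysed here. Transfection with a *Pax8* siRNA gave the si*Pax8* cells, and their controls were wild type (wt) cells on one set of arrays and siScramble cells, which received a scrambled siRNA, on the other. The siRNAs were given at 10 ng/ml with Lipofectamine, and cells were harvested for RNA 48 hours later. The sample labels call the control without siRNA wild type, whereas the methods list it as treated with lipofectamine, so an effect of the transfection and an effect of the siRNA cannot be told apart in that comparison. Each comparison had 8 two-colour Agilent arrays from 4 biological replicates, with each replicate hybridized in both dye orientations. The design scheme gives the si*Pax8* samples the same names in both comparisons, without saying whether the RNA was the same.

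AP-1 is a family of dimeric transcription factors of the basic leucine zipper (bZIP) class, in which Jun proteins pair with each other or with Fos, ATF or BATF proteins. The dimers bind the TPA response element or, with ATF partners, the cAMP response element. Several of the genes are immediate early genes, transcribed quickly after growth factors, cytokines, stress or TSH, the thyroid stimulating hormone, and their proteins are then controlled by MAP kinases.

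*Pax8*, the target of the siRNA, was reduced relative to wt cells, with log2 ratios of -0.84, -0.57, -0.59 and -0.26 in replicates 1 to 4 (mean -0.56 ± 0.24 SD, n = 4; adjusted p = 0.000472, limma). The log2 ratios over siScramble cells were -0.58, -0.29, -0.12 and -0.01 (mean -0.25 ± 0.25 SD, n = 4; adjusted p = 0.143, limma). The *Pax8* transcript was therefore below the control in every replicate, but by as little as 0.01 in replicate 4 relative to siScramble cells, where 1 of the 8 arrays had a value of 0.11. All ratios are si*Pax8* over control, as the dye labels give it; the signs in the study's list of probes run the same way, whereas its text words the numbers of changed probes the other way round.

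Of the 13 thyroid follicular cell markers, 11 were on the arrays, and all 11 were well above background on every array. The 11 include *Pax8*, the target of the siRNA. Relative to wt cells 9 of them were called lower, *Pax8* among these, and 1 higher, with a median log2 ratio of -0.6. Relative to siScramble cells 1 was called lower (*Tg*), with a median of -0.18. Their summed intensity was 122000 to 136000 in si*Pax8* and 179000 to 227000 in wt cells, and 126000 to 141000 in si*Pax8* and 147000 to 196000 in siScramble cells. In bulk RNA, fewer cells expressing a gene and less of its RNA per cell cannot be told apart. Each array had 45018 spots, and between 51% and 59.5% of them were well above background. All member probes were well above background on all 8 arrays in every condition, and none was saturated.

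Relative to wt cells, 7 of the 8 AP-1 genes changed: *Jun*, *Fos*, *Atf3*, *Fosl2* and *Junb* were higher in si*Pax8* cells and *Batf3* and *Jund* were lower, whereas *Fosl1* did not pass the test. In the comparison with siScramble cells, 6 changed: *Jun*, *Fosl2* and *Junb* were higher, and *Batf3*, *Atf3* and *Fos* were lower. A gene was called when all its probes had an adjusted p below 0.005 with the same sign (limma, Benjamini-Hochberg over all probes). Among all named genes, 7.26% were called higher and 9.46% lower relative to wt cells, or 16.7% in either direction. For siScramble cells 1.67% were called higher and 1.31% lower, or 2.99%. Unlike the 8 members, the named genes include many not well above background. These shares, and those of the difference below, are thus over an unlike set. As *Fos*, *Jun* and *Batf3* were already reported as changed by the study, the number of members called is not independent of their choice. The median log2 ratio of the 8 genes was 0.44 over wt and -0.12 over siScramble cells, beside -0.005 and -0.003 for all named genes. The sign was the same in both comparisons for 5 genes (*Jun*, *Junb*, *Fosl2*, *Jund* and *Batf3*) and opposite for 3 (*Fos*, *Atf3* and *Fosl1*), and *Fos* and *Atf3* were called in both with opposite signs.

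**Figure D1:**
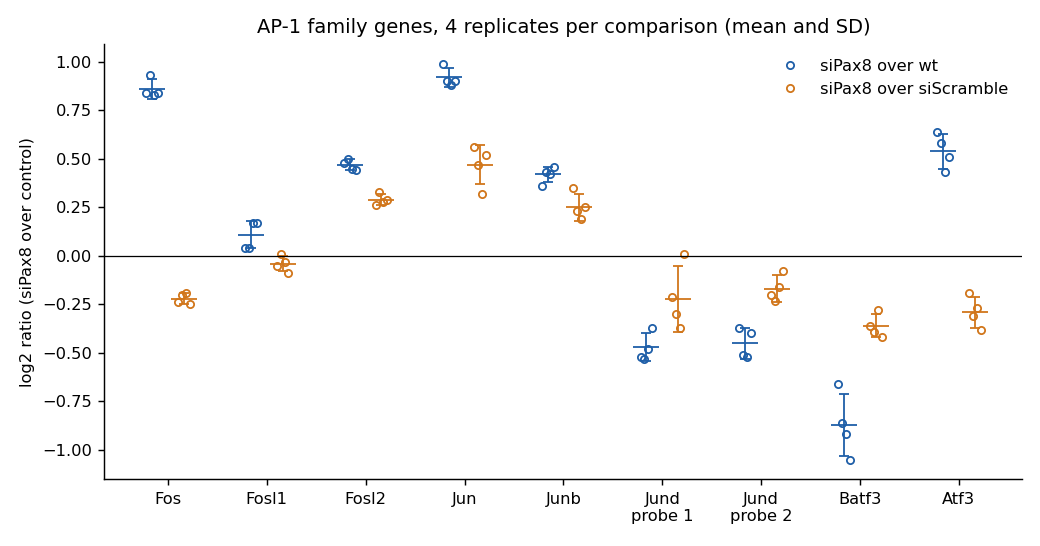
Log2 ratio of si*Pax8* over control (vertical axis) for each probe of the AP-1 genes (horizontal axis), with 4 replicates per comparison as open circles and the mean and SD as bars. *Fos* lies at 0.83 to 0.93 relative to wt and at -0.25 to -0.19 relative to siScramble cells, *Atf3* also lies on opposite sides of 0, and *Batf3* lies below 0 in both comparisons.

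*Fos* encodes the prototype Fos protein, which cannot form homodimers and pairs with Jun proteins. Its log2 ratios over wt cells were 0.84, 0.93, 0.83 and 0.84 in replicates 1 to 4, a 1.82-fold higher level (mean 0.86 ± 0.05 SD, n = 4; adjusted p = 2.74e-07, limma). Over siScramble cells they were -0.24, -0.2, -0.19 and -0.25 (mean -0.22 ± 0.03 SD, n = 4; adjusted p = 0.0038, limma). All replicates of the former comparison lay above 0 and all of the latter below it, so the values of the comparisons did not overlap. On the normalized log2 intensity scale *Fos* was at 8.49 in si*Pax8* and 7.63 in wt cells on the arrays of that comparison, and at 8.5 in si*Pax8* and 8.72 in siScramble cells on the others. The order of the levels was thus siScramble, si*Pax8* and wt.

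*Atf3*, a stress-induced member that can act as a repressor when it forms homodimers, had the same arrangement. The log2 ratios over wt cells were 0.64, 0.58, 0.43 and 0.51 (mean 0.54 ± 0.09 SD, n = 4; 1.45-fold; adjusted p = 1.24e-05, limma). Over siScramble cells they were -0.19, -0.31, -0.27 and -0.38 (mean -0.29 ± 0.08 SD, n = 4; adjusted p = 0.0041, limma). The replicates again lay on opposite sides of 0, and the mean log2 intensity was 11 in si*Pax8* cells, 10.4 in wt cells and 11.3 in siScramble cells.

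*Jun*, which encodes c-Jun, the Jun protein with the strongest transactivation and a substrate of the JNK kinases, was higher than in both controls. Its log2 ratios were 0.99, 0.9, 0.88 and 0.9 over wt cells (mean 0.92 ± 0.05 SD, n = 4; 1.89-fold; adjusted p = 2.32e-07, limma). Over siScramble cells they were 0.56, 0.47, 0.32 and 0.52 (mean 0.47 ± 0.1 SD, n = 4; 1.38-fold; adjusted p = 0.00121, limma). All 8 values were above 0, and the lowest relative to wt lay above the highest relative to siScramble cells. The *Jun* probe was printed 10 times on each array, which gave a technical check within arrays. All 80 spots relative to wt cells were positive, from 0.67 to 1.13, as were the 76 used relative to siScramble cells, from 0.15 to 0.78, and the SD among the spots of an array was 0.015 to 0.107.

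*Junb*, whose product is a weaker activator than c-Jun and can oppose it, had log2 ratios of 0.36, 0.43, 0.42 and 0.46 over wt cells (mean 0.42 ± 0.04 SD, n = 4; 1.34-fold; adjusted p = 1.37e-05, limma). Over siScramble cells they were 0.35, 0.23, 0.19 and 0.25 (mean 0.25 ± 0.07 SD, n = 4; adjusted p = 0.00498, limma). All 8 values were above 0, but the latter call lay just inside the threshold. It was lost with outlier spots kept (adjusted p = 0.00527) and with the replicate number as a block over the 8 arrays (adjusted p = 0.0471), both by limma, and held with a dye term beside that block (adjusted p = 0.000178) and in 1 fit of both comparisons (adjusted p = 0.000341).

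*Fosl2*, which encodes Fra-2, a Fos protein without the strong transactivation domain of c-Fos, was higher than in both controls. Its log2 ratios were 0.48, 0.5, 0.45 and 0.44 over wt cells (mean 0.47 ± 0.03 SD, n = 4; 1.38-fold; adjusted p = 5.4e-06, limma). Over siScramble cells they were 0.26, 0.33, 0.28 and 0.29 (mean 0.29 ± 0.03 SD, n = 4; 1.22-fold; adjusted p = 0.00124, limma). The values were above 0 in all replicates, and those of the comparisons did not overlap. With Agilent's processed intensities the means were 1.02 and 0.68, more than 1.5 times as large.

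*Fosl1*, which encodes Fra-1, had log2 ratios of 0.04, 0.04, 0.17 and 0.17 over wt cells (mean 0.11 ± 0.07 SD, n = 4; adjusted p = 0.0506, limma). Over siScramble cells they were -0.05, 0.01, -0.03 and -0.09 (mean -0.04 ± 0.04 SD, n = 4; adjusted p = 0.516, limma). The 95% intervals of the means were 0.03 to 0.19 and -0.11 to 0.02. Its mean log2 intensity was 7.07 in si*Pax8* and 6.97 in wt cells.

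*Batf3* and *Jund* were the genes with negative values in both comparisons. Their promoters, from 250 bases before to 50 bases after the transcription start, are shown because both genes were lower than in wt cells and because Sp1, which binds GC boxes, is among the factors studied with Pax8. Capitals mark the GC box GGGCGG and the cAMP response element TGACGTCA, searched on both strands, with overlapping matches kept; the sequences are from RefSeq, assembly GRCr8.
*Jund*, chr16:18769722-18770021, minus strand: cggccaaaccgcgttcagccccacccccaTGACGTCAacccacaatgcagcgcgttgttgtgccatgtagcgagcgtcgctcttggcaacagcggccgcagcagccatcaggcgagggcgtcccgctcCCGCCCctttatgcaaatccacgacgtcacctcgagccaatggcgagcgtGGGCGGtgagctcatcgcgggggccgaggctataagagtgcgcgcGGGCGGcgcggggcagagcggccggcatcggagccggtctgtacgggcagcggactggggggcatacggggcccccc
*Batf3*, chr13:105220532-105220831, plus strand: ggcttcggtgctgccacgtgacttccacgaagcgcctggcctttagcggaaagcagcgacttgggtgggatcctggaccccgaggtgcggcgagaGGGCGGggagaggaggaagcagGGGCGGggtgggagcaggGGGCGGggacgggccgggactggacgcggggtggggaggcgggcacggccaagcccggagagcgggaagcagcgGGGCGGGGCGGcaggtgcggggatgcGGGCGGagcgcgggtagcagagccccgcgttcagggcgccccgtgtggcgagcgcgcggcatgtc

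The *Jund* window held 3 GC boxes and 1 cAMP response element, and the *Batf3* window 6 GC boxes. The GC content was 69.7% and 75.3%, above the median of 51.7% over the 33469 promoters of the table. It was also above that median for *Fosl2* (70.7%), *Junb* (65.3%) and *Fosl1* (62.3%), and below it for *Fosb* (47.7%) and *Batf* (46.7%). Of the members, 7 had a promoter in the table, among them the unmeasured *Fosb* and *Batf*, whereas *Fos*, *Jun* and *Atf3* had none. A GC box was in 5 of the 7 and the cAMP response element in 1, compared with 33.1% and 1.83% of all promoters. These shares were not matched for GC content. The pattern TGANTCA, with any base at N, includes the TPA response element but is wider than it. This pattern was in 7.33% of all promoters and in none of the 7. The higher genes *Fosl2* and *Junb* had 2 and 0 GC boxes, so GC boxes were not found in the genes with negative values alone.

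*Batf3*, known for its role in the development of a class of dendritic cells, had log2 ratios over wt cells of -0.66, -0.86, -0.92 and -1.05 (mean -0.87 ± 0.16 SD, n = 4; adjusted p = 6.16e-06, limma). The level in si*Pax8* cells was thus 54.5% of that in wt cells. Over siScramble cells the log2 ratios were -0.36, -0.39, -0.28 and -0.42 (mean -0.36 ± 0.06 SD, n = 4; adjusted p = 0.00102, limma), or 77.8% of that control. All 8 values were below 0 and those of the comparisons did not overlap. With Agilent's processed intensities the means were -1.41 and -0.69. Of the 5 dendritic cell markers only *Itgae* was on the arrays, where it was not well above background on any array, with a summed intensity of 82.8 to 91.7 in si*Pax8* and 82.8 to 90 in wt cells. Of 5 leukocyte markers measured, 4 were above background, with a summed intensity of 1440 to 1770 in si*Pax8* and 1750 to 2020 in wt cells, and of 1450 to 1680 in si*Pax8* and 1420 to 1800 in siScramble cells. Of these, *Cd74*, the MHC class II invariant chain, was called lower in both comparisons (-1.01 and -0.31) and *Cd68* higher relative to wt cells (0.3), whereas *Cd14* (0.15 and 0.12) and *Lyz2* (0.1 and 0.12) did not pass, and the median of the 5 was 0.1 over wt and 0.07 over siScramble cells. Their part in the result was not tested.

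*Jund*, whose product is the Jun protein most abundant in resting cells of many types, was measured by a pair of probes. Relative to wt cells the first had log2 ratios of -0.52, -0.53, -0.48 and -0.37 (mean -0.47 ± 0.07 SD, n = 4; adjusted p = 1.45e-05, limma). The other probe had -0.37, -0.51, -0.52 and -0.4 (mean -0.45 ± 0.08 SD, n = 4; adjusted p = 2.42e-05, limma). Both were below 0 in every replicate, with overlapping ranges. Relative to siScramble cells the former had -0.21, -0.3, -0.37 and 0.01 (mean -0.22 ± 0.17 SD, n = 4; adjusted p = 0.0724, limma). The latter had -0.2, -0.23, -0.16 and -0.08 (mean -0.17 ± 0.07 SD, n = 4; adjusted p = 0.0225, limma). Neither passed the threshold there, and replicate 4 had the highest value of both probes.

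Whether the comparisons differed was tested with limma, with the 4 values of each as separate groups. As si*Pax8* is in the numerator of both ratios, this difference contains the change of siScramble over wt cells. It passed the threshold for 4 of the 8 genes, compared with 4.56% of all named genes (1.78% with a higher and 2.79% with a lower value relative to wt). *Fos* had the largest difference, 1.08 (95% interval 1 to 1.16; adjusted p = 5.73e-07, limma). It was followed by *Atf3* with 0.83 (0.71 to 0.94; adjusted p = 9.14e-06, limma), *Batf3* with -0.51 (-0.67 to -0.35; adjusted p = 0.00122, limma) and *Jun* with 0.45 (0.33 to 0.57; adjusted p = 0.000446, limma). For the remaining genes the difference did not pass the threshold, which does not show that the comparisons were alike: *Fosl2* differed by 0.18 (0.1 to 0.25), *Junb* by 0.16 (0.07 to 0.26) and *Fosl1* by 0.15 (0.05 to 0.25). The *Jund* probes differed by -0.26 (-0.42 to -0.09; adjusted p = 0.0512) and -0.29 (-0.39 to -0.18; adjusted p = 0.00416, limma), so that one of them passed.

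**Figure D2:**
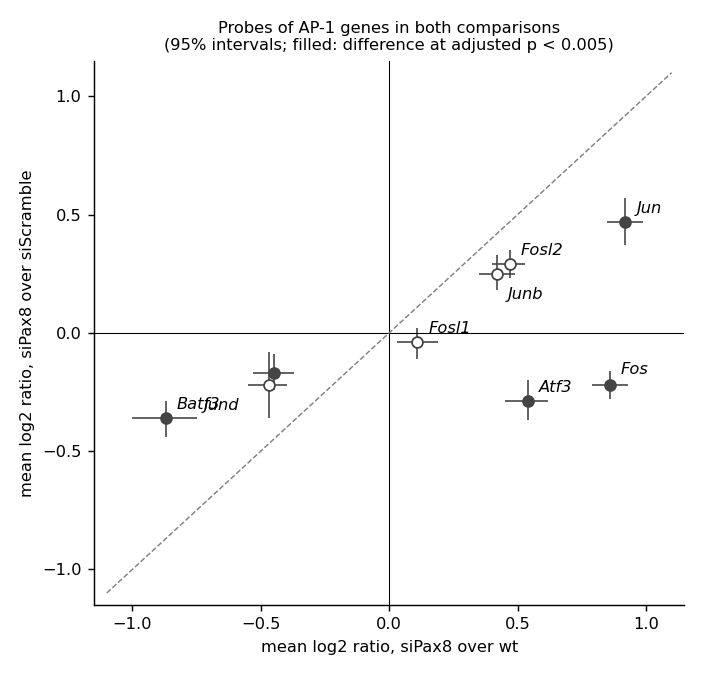
Mean log2 ratio over wt (horizontal axis) against that over siScramble cells (vertical axis) for each AP-1 probe, with 95% intervals; filled points passed the test of the difference, and the dashed line marks equal values. *Fos* and *Atf3* lie in the lower right quadrant, *Jun*, *Junb* and *Fosl2* in the upper right, and *Batf3* and both *Jund* probes in the lower left. The comparisons may share the si*Pax8* samples, so the axes are not taken as independent.

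The calls relative to wt cells held when any of the 4 replicates was left out. Most of those relative to siScramble cells were lost whichever replicate was left out. No member was called by limma without replicate 1 or 2, with 7 members each at an unadjusted p below 0.05. Of all 41012 probes, 8418 and 6862 were below that p. Here and below, a gene was counted at the unadjusted p when all its probes passed with the same sign. Probes were counted singly, so these counts are over unlike units. Of the members, *Jun* and *Batf3* were called without replicate 3. *Batf3* alone was called without replicate 4, the replicate in which *Pax8* was least reduced. The loss of calls was not confined to the members. Over all probes, 499 were called higher and 368 lower with all 4 replicates. Without replicates 1 to 4 in turn, the numbers were 258 and 120, 84 and 35, 156 and 58, and 288 and 124. In these fits the mean log2 ratio of *Fos* was -0.23 to -0.21, that of *Jun* 0.44 to 0.52 (the highest without replicate 3) and that of *Atf3* -0.32 to -0.26. The difference between the comparisons was called for *Fos* and *Atf3* whichever replicate was left out. *Jun* lost it without replicate 2 (adjusted p = 0.00833, limma), and *Batf3* without replicate 2, 3 or 4 (adjusted p = 0.0149, 0.0221 and 0.00587, limma). Within the 4 slides, each of which held 2 arrays of each comparison, *Fos* was at 0.76 to 0.92 over wt and at -0.3 to -0.18 over siScramble cells, and *Batf3* at -0.9 to -0.86 and -0.5 to -0.29.

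The dye orientation moved *Junb* more than the replicates did. With si*Pax8* RNA in Cy5 its log2 ratio was 0.24 ± 0.06 over wt and 0.01 ± 0.05 over siScramble cells (SD, n = 4 arrays), and with si*Pax8* RNA in Cy3 it was 0.59 ± 0.08 and 0.5 ± 0.09. The array values of the dye orientations did not overlap in either comparison, so *Junb* was higher than in siScramble cells on the Cy3 arrays and not distinguishable from it on the Cy5 arrays. For *Jun* (0.47 ± 0.15 and 0.46 ± 0.12), *Fosl2* (0.29 ± 0.05 and 0.29 ± 0.11) and *Batf3* (-0.36 ± 0.17 and -0.36 ± 0.08) the orientations gave like means relative to siScramble cells. *Fos* and *Atf3* were negative on all 8 of these arrays, with means of -0.14 and -0.3 for *Fos* and -0.19 and -0.38 for *Atf3* in Cy5 and Cy3. The second *Jund* probe also separated by dye, at -0.62 to -0.46 in Cy5 and -0.44 to -0.22 in Cy3 over wt cells and at -0.36 to -0.23 and -0.16 to 0.07 over siScramble cells, and *Fos* did so over siScramble cells alone, at -0.2 to -0.08 and -0.41 to -0.24. With the Cy5 arrays alone, no member was called relative to siScramble cells by limma. At an unadjusted p below 0.05 there were 6 members, beside 8718 of all 41012 probes.

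**Figure D3:**
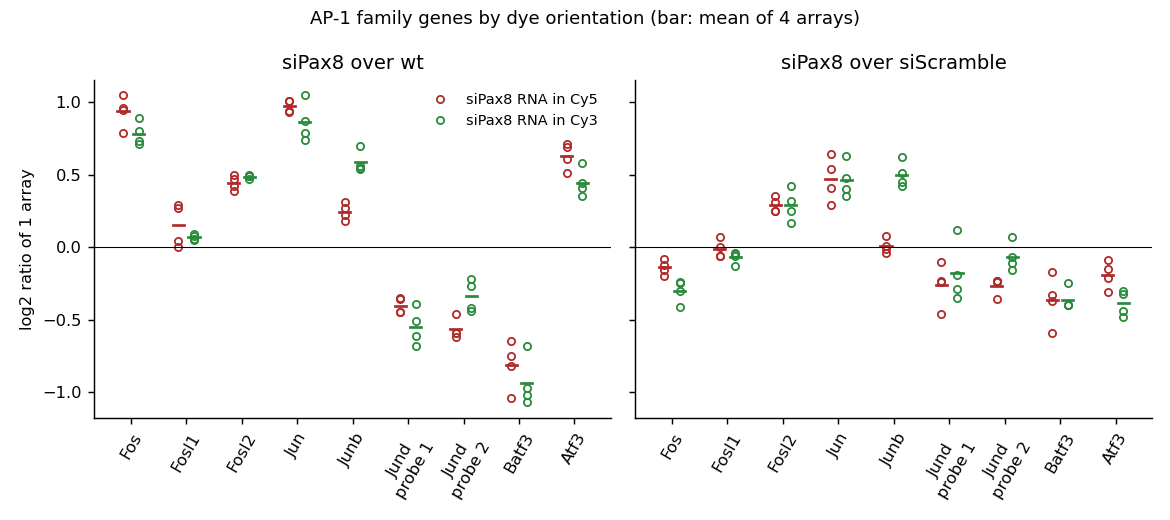
Log2 ratio of si*Pax8* over control on each array (vertical axis) for each AP-1 probe, separated by the dye that carried the si*Pax8* RNA; bars are means of 4 arrays. The arrays of *Junb* and of the second *Jund* probe fall into separate groups by dye in both panels, those of *Fos* relative to siScramble cells only, and *Fos* and *Atf3* are above 0 on all arrays relative to wt and below 0 on all arrays relative to siScramble cells.

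The processing moved sizes and calls, but turned no sign of a member. Alternatives that changed only the fit, the probes tested, the threshold or the probe rule kept the means, so their signs could not turn. The looser adjusted p threshold of 0.05 and the rule of any probe of a gene could not remove a call. Relative to wt cells all 7 calls held under 18 alternatives, these included. *Fos* lay between 0.78 and 1.29, *Jun* between 0.86 and 0.97, and *Batf3* between -1.41 and -0.81. With siScramble cells as the control, *Jun* and *Batf3* each kept the call under 13 of 18 alternatives, *Fosl2* under 11, *Atf3* under 10, *Fos* under 9 and *Junb* under 6. With Agilent's processed intensities no member, and no probe of the whole array, was called relative to siScramble cells by limma (7 members and 8046 probes were below an unadjusted p of 0.05). The difference of *Fos* (1.06 to 1.54) and of *Atf3* (0.8 to 0.89) was called under all 15 alternatives run for it.

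**Figure D4:**
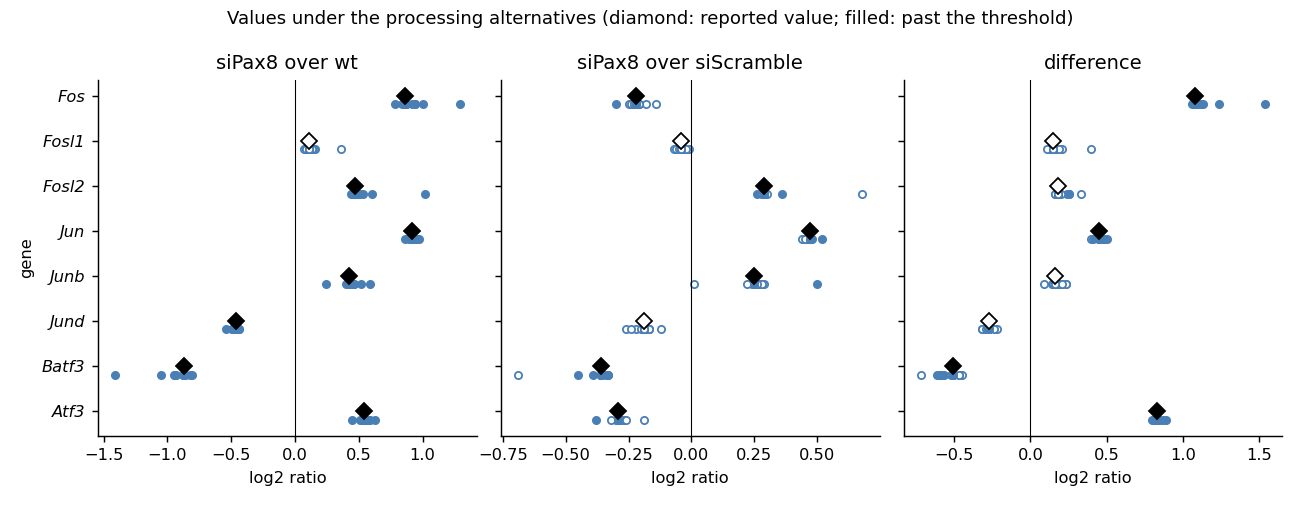
Log2 ratio (horizontal axis, on its own range in each panel) of each AP-1 gene over wt, over siScramble cells and as the difference of both, with the reported value as a diamond and each processing alternative as a circle; filled symbols passed the threshold. No symbol crosses 0, and relative to wt cells the only open symbols are those of *Fosl1*.

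Of 33 other bZIP genes, many of which encode dimer partners of AP-1 proteins, 20 were on the arrays. A total of 5 were called higher and 2 lower relative to wt cells, with a median log2 ratio of 0.02, and relative to siScramble cells 2 were called higher, with a median of 0.03. *Ddit3*, which encodes the stress factor CHOP, was at 1.34 ± 0.15 over wt (adjusted p = 4.24e-07) and 0.39 ± 0.08 over siScramble cells (adjusted p = 0.00142; SD, n = 4, limma). *Crem*, a mediator of cAMP responses, was at -0.75 ± 0.08 over wt (adjusted p = 1.51e-06) and at -0.04 ± 0.05 over siScramble cells (adjusted p = 0.555). *Nfe2l2*, which controls the oxidative stress response, was at 0.66 ± 0.13 and *Maf* at 0.57 ± 0.09 over wt cells, and neither passed the test relative to siScramble cells.

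Of 30 kinases and regulators upstream of AP-1, 18 were measured. Relative to siScramble cells none was called by limma, with a median of -0.02. At an unadjusted p below 0.05 there were 5 of the 18, beside 8408 of all 41012 probes. Genes and single probes are unlike units, and whether the 5 exceed that share was not tested. Relative to wt cells 3 were called higher and 2 lower, with a median of -0.05. The largest were *Mapk13*, a p38 kinase, at -0.51 ± 0.11, *Map2k7*, a kinase of JNK, at 0.36 ± 0.16, *Map2k1*, a kinase of ERK, at 0.34 ± 0.12, and *Rps6ka1*, a kinase activated by ERK, at -0.32 ± 0.06 over wt cells (SD, n = 4). In wt cells *Map2k7* was well above background on 4 of 8 arrays, and in si*Pax8* cells on all 8. Arrays measure transcripts, so the activity of these kinases was not measured.

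Of 30 genes described as AP-1 targets, 27 were measured, 9 of them above background on fewer than 4 of 8 arrays in each condition. Relative to wt cells 5 were called higher and 3 lower, with a median of 0.03, and relative to siScramble cells 3 were called higher, with a median of 0.02. *Ccl2*, a chemokine for monocytes, stood apart at 2.39 ± 0.07 over wt (adjusted p = 6.98e-09) and 0.57 ± 0.14 over siScramble cells (adjusted p = 0.00134, SD, n = 4, limma). In wt cells it was well above background on 5 of 8 arrays, and in si*Pax8* cells on all 8. *Vim*, the intermediate filament vimentin, was at 0.56 ± 0.17 and 0.25 ± 0.05 and was called in both. *Vegfa*, an angiogenic growth factor, was at 0.56 ± 0.09 and *Ezr*, a linker of membrane and actin, at 0.55 ± 0.06 over wt cells, and neither passed the test relative to siScramble cells.

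Interferon response genes moved with the comparison relative to wt cells. Of 17 measured out of 20, 14 were called higher relative to wt cells, with a median of 1.13, whereas relative to siScramble cells 2 were called higher and 1 lower, with a median of 0.24. The difference between the comparisons passed for 10 of the 17, all with the higher value relative to wt, with a median of 0.81. The largest ratios over wt cells were those of *Oas1a* at 2.93 ± 0.44, *Mx2* at 2.86 ± 0.53, *Irf7* at 2.36 ± 0.09 and *Rsad2* at 2.33 ± 0.25 (SD, n = 4). Of these, *Mx2* was well above background on 6 of 8 arrays in wt cells. The part of this response in the AP-1 values was not tested.

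**Figure D5:**
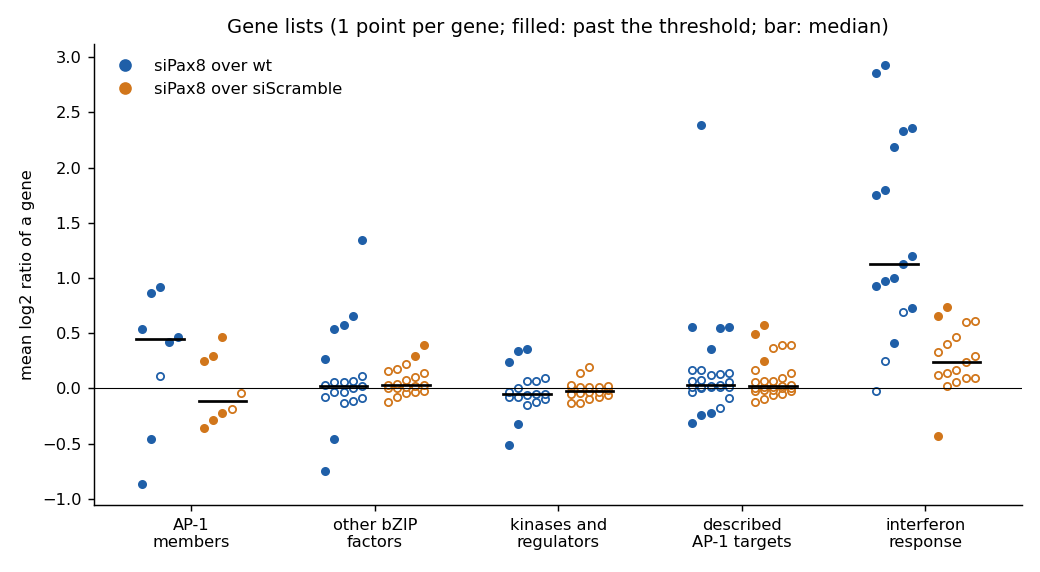
Mean log2 ratio of each gene (vertical axis) in 5 gene lists, relative to wt and to siScramble cells; filled points passed the threshold and bars are medians. The interferon response genes have the highest median relative to wt cells (1.13), and the medians of the other bZIP genes, the kinases and the described targets lie within 0.05 of 0.

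The genes most like a member were found by the root mean square difference of the 8 replicate log2 ratios, over 5355 named genes. For *Fos* they were *Csrp3*, which encodes a muscle LIM protein (0.115), *Ctsl*, the protease cathepsin L (0.174), and *Slc26a4*, the anion transporter pendrin of thyrocytes (0.186). *Slc26a4* was at 0.64 ± 0.06 over wt and -0.18 ± 0.14 over siScramble cells, the former against the direction of the other thyroid markers called. For *Jun* they were *Cytip* (0.0857) and the interferon-induced genes *Irgm* (0.0967) and *Ifi44l* (0.104). For *Batf3* they were *Sult1b1*, a sulfotransferase (0.102), *Slc25a22*, a mitochondrial glutamate carrier (0.103), and *RT1-Da*, a chain of MHC class II (0.109), at -0.88 ± 0.04 over wt and -0.26 ± 0.03 over siScramble cells.

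*Batf3* and *Atf3* are neighbours on chromosome 13, with 0 annotated genes between them in the assembly GRCr8. Relative to siScramble cells both were lower, at -0.36 and -0.29, whereas relative to wt cells *Batf3* was lower, at -0.87, and *Atf3* higher, at 0.54. *Fos* lies on chromosome 6 near *Jdp2*, a bZIP repressor of AP-1, which was at -0.03 ± 0.06 over wt and -0.03 ± 0.07 over siScramble cells (SD, n = 4; adjusted p = 0.612 and 0.677, limma).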

How the data were processed

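The authors deposited, for each of 16 arrays, unnormalized fluorescence intensities (the mean of each spot and the median of its local background in Cy3 and Cy5), and intensities corrected for background and dye by Agilent Feature Extraction, which the file headers give as 10.1.1.1. A table with normalized log2 ratios of all arrays was also deposited. Its values correlated with the ratios computed here from -0.999 to -0.992 with slopes of -1.05 to -0.95, so it was read as control over si*Pax8* on the log2 scale; how it was centred remains unknown. Its column medians for replicates 1 to 4 were 5e-04, 4e-04, 9e-04 and 0.0015 (si*Pax8* in Cy5) and 0.0059, 0.0051, 0.0061 and 0.0083 (Cy3) against wt, and 0.001, -7e-04, 0.002 and 0.0023 (Cy5) and 0.0045, 0.0036, 0.0061 and 0.0056 (Cy3) against siScramble cells. It served as an alternative.

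R 4.3.3 was used with statmod 1.5.0 and limma 3.58.1: normexp background correction with an offset of 50, loess within arrays with control and outlier spots at weight 0, and, without the 1639 control spots, quantile normalization. Spots marked as outliers (112 to 215 per array) were left out, the remaining spots of a probe averaged, and dye-swapped arrays averaged, giving 4 values per comparison. Each comparison was fitted with lmFit and eBayes, with Benjamini-Hochberg adjustment over 41012 probes, with the threshold of 0.005 from the methods. The script was tested on simulated data. The number of arrays limits the precision.

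Probes of a gene were averaged for its value, and the 10768 named probes were named through RefSeq accessions. The members and lists were chosen with earlier results of these data known. Named are all members, *Pax8*, up to 4 genes per list with the largest mean log2 ratio among those called, and the 3 genes most like *Fos*, *Jun* and *Batf3*, above background on 16 or more of 32 channels. *Tg*, *Itgae*, *Cd74*, *Cd68*, *Cd14*, *Lyz2*, *Jdp2* and the second mention of *Slc26a4* were added after their values were seen.

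The labels give replicate numbers. For probes whose mean log2 intensity exceeded 8, deviations of same-numbered dye swaps correlated with 0.324, 0.119, 0.398 and 0.470 against wt and 0.471, 0.560, 0.580 and 0.332 against siScramble cells, so the swaps were paired; in the former, a swap of replicate 2 had a higher value (0.204) with a swap of a different number. Across comparisons the values were 0.395, 0.175, 0.0449 and 0.566. The highest with a different number were -0.0579, 0.0743, 0.408 and 0.256, so replicate 3 alone matched another number better. The reported test of the difference did not pair the comparisons by number, and pairing them was run as an alternative.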

Additional observations from a re-analysis of the deposited data

Results flagged for a closer look

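*Fos* had 1 replicate apart from the others relative to wt cells: replicate 2 was at 0.93 and the rest at 0.83 to 0.84, a gap of 0.875 of the range, above Dixon's critical value for 4 values. The test flags about 1 in 20 groups by chance, and the call held without that replicate.

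The log2 ratio over wt minus that over siScramble cells passed the threshold by limma for *Fos* (1.08), *Atf3* (0.83), *Jun* (0.45) and *Batf3* (-0.51). Both ratios have si*Pax8* in the numerator, so this difference contains the change of siScramble over wt cells. It does not show that the effect of si*Pax8* differed.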

How the results depend on the processing

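The numbers of members called relative to wt cells (5 higher, 2 lower) were the same under all alternatives, of which the looser threshold and the rule of any probe could not lower them. Relative to siScramble cells (3 higher, 3 lower) they were 0 and 0 with Agilent's processed intensities, 1 and 0 with loess alone, 0 and 0 with si*Pax8* in Cy5 only, and 0 to 1 higher and 0 to 1 lower without replicates 1 to 4 in turn. At an unadjusted p below 0.05 by limma, 3 and 4 members passed with Agilent's processed intensities and 2 and 4 with Cy5 only. Of all 41012 probes, 8046 and 8718 passed in the same fits. The difference was called for 4 members, for 2 with Agilent's processed intensities, and for 2 to 4 without a replicate. The cause of these changes was not tested, and the fits without a replicate also had fewer values. With the replicate block *Junb* lost the call relative to siScramble cells (adjusted p = 0.0471; 0.000178 with a dye term added) and the difference of *Pax8* passed (-0.32, adjusted p = 0.00171); it changed no other call, and the pairing across comparisons is in doubt. Keeping outlier spots, an alternative added after seeing the data, removed the call of *Junb* relative to siScramble cells. *Pax8* relative to wt cells lost the call with Agilent's processed intensities (adjusted p = 0.018), with si*Pax8* in Cy3 only (0.0181) and without replicate 3 (0.00562).

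Over all probes, 2886 were called higher and 3374 lower relative to wt cells, between 876 and 797 (Agilent's processed intensities) and 3850 and 4558 (slide as random block). Relative to siScramble cells 499 and 368 were called, between 0 and 0 and, with si*Pax8* in Cy3 only, 1715 and 1870. Loess alone gave 418 and 179 there, a larger share of higher calls. The difference was called for 677 higher and 732 lower, between 178 and 190 without replicate 3 and 1144 and 1164 with the replicate block.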
